A study of Mus musculus with 4 samples.

Results

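The Arp2/3 complex was followed through the 9 mouse genes that encode its subunits, Actr2, Actr3, Arpc1a, Arpc1b, Arpc2, Arpc3, Arpc4, Arpc5 and Arpc5l. The members were taken by NCBI gene ID, and all 9 were found among the 17374 genes of the deposited transcript table. They account for 16 of its 45505 listed transcripts. Each control library came from germinal vesicle (GV) stage oocytes of female mice on postnatal day 16 that received no irradiation. Each irradiated library came from GV oocytes of the same age that received 5 Gy of γ-irradiation and were collected 24 h later. Oocytes of both conditions were freed of cumulus cells, cultured with milrinone, a phosphodiesterase inhibitor that holds meiosis at the GV stage, and stripped of the zona pellucida. Their mRNA was selected with oligo(dT). There were 2 libraries in each condition, from independent experiments, and 59 oocytes are given for each condition, without saying whether in each replicate or over both. The RNA came from pooled oocytes, so that fewer oocytes with a transcript and less of it in each oocyte cannot be told apart.

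The Arp2/3 complex starts a new actin filament from the side of an existing filament and so builds branched networks. Actr2 and Actr3 encode Arp2 and Arp3, the actin-related subunits that stand in for the first actin molecules of the branch. The genes Arpc1 to Arpc5 encode the other subunits: Arpc2 and Arpc4 form the core that holds the mother filament, Arpc3 sits beside Arp3, and Arpc1 and Arpc5 help to place Arp2. In mouse, Arpc1 and Arpc5 each come as a pair of alternative subunits, Arpc1a or Arpc1b and Arpc5 or Arpc5l, so one complex holds 1 member of each pair. In oocytes the complex is known for its part in the cortical actin that keeps the spindle at its off-centre position and in the extrusion of the polar body.

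The members lie apart in the genome, except for 1 pair. In the RefSeq annotation of GRCm38.p6, Arpc1a (chr5:145083869-145108756) and Arpc1b (chr5:145114256-145128186) are neighbours with 5499 bases between them. Arpc3 lies farther up the same chromosome (chr5:122391878-122406181). Actr3 (chr1:125392905-125435727), Arpc2 (chr1:74236490-74268209) and Arpc5 (chr1:152766542-152775580) share chromosome 1. Actr2 is at chr11:20062304-20112951, Arpc4 at chr6:113378113-113390447 and Arpc5l at chr2:39008066-39015878.

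The alternative subunits resemble each other closely, so the sequences decide whether a read can be given to 1 of them. The reads were 100 bases long. Of all stretches of that length in the coding sequences, the pair with the fewest differences is shown for each set of paralogs, taken from the GENCODE M21 transcripts of GRCm38, 5′ to 3′ on the coding strand. Capitals mark the bases that differ from the paralog. For Arpc1a and Arpc1b, the stretches are coding bases 421 to 520 of both genes, across 2 exons each, at chr5:145097244-145101076 and chr5:145124615-145125597 on the plus strand.
Arpc1a: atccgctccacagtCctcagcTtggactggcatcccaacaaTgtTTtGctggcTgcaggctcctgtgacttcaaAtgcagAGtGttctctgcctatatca
Arpc1b: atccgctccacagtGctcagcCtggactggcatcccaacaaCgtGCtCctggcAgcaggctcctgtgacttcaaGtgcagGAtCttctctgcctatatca
Even these closest stretches differ at 11 of 100 bases, and the longest run that both transcripts share is 21 bases. For Arpc5 and Arpc5l, the stretches start at coding base 314 of Arpc5 and 320 of Arpc5l, at chr1:152771461-152774279 and chr2:39013820-39015077, both on the plus strand and across 2 exons.
Arpc5: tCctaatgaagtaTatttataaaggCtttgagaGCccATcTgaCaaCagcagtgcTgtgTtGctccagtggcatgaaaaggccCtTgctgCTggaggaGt
Arpc5l: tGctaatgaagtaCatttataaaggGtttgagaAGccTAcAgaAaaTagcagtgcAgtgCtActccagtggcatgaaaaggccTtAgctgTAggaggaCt
They differ at 18 bases. Actr3 has a paralog outside the 9 members, Actr3b, whose coding sequence is also 1254 bases long. Their closest stretches are coding bases 498 to 597 of both, at chr1:125405932-125407334 on the minus strand and chr5:25825173-25829582 on the plus strand.
Actr3: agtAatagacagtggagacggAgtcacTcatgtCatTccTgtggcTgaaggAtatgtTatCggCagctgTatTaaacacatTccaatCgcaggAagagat
Actr3b: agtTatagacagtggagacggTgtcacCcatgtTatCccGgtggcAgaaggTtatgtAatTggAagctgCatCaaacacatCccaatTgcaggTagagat
They differ at 16 bases, and no shared run is longer than 20 bases. In all 9 members, the estimated counts of a gene's transcripts added up to whole numbers in every library, within a tolerance of 0.02 of a read. The gene totals therefore showed no sign of reads shared out between paralogs, and the totals of Arpc1a and Arpc1b, or of Arpc5 and Arpc5l, can be compared as separate genes.

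The 4 libraries held between 33349466 and 37232818 estimated counts. All 14 oocyte markers were above 1 TPM (an abundance corrected for transcript length and for the total of the library) in every library, with a summed level of 50428 to 58887 TPM. The summed level of 15 granulosa or cumulus cell markers, of which 11 were listed, was 17.95 to 25.55 TPM. Of those listed, 4 were above 1 TPM in every library (Cyp19a1 at 8.79 to 10.23, Nr5a2 at 3.53 to 7.43, Fshr at 1.66 to 2.89 and Kitl at 1.45 to 2.07 TPM), Gja1, Inhba, Inhbb and Hsd17b1 were at 10 counts or fewer in each library, and Foxl2, Amh, Amhr2 and Fst were not listed. Theca or stroma cell markers (6 genes, 3 listed) summed to at most 0.39 TPM and blood or immune cell markers (5 genes, 1 listed, Cd68) to 1.58 to 3.50 TPM. Irradiated library 2 stood apart from the rest: across genes, the correlation of its log-scale counts with the other libraries was 0.981 to 0.984, against 0.992 to 0.993 among those. Of 12569 genes tested, 18.5% lay more than 1.2 times above, and 16.2% more than 1.2 times below, the range of the other libraries in irradiated library 2, while no other library passed 2.86% above or 5.77% below. The factor of 1.2 was chosen after the values were seen. The comparisons below give the values without this library beside those with it.

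In each library the 9 genes took up 0.0959% to 0.109% of all estimated counts. Arpc5l, an alternative form of the smallest subunit, was by far the most abundant, with 553, 572, 595 and 611 TPM (controls 1 and 2, then irradiated 1 and 2, the order used throughout). It made up 61.5% of the summed TPM of the 9 genes, and its mean was 4.94 times that of the next gene. Actr2 followed with 120, 116, 121 and 115 TPM. The ranges of these 2 genes over the libraries overlapped neither with each other nor with those of the other 7.

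**Figure D1:**
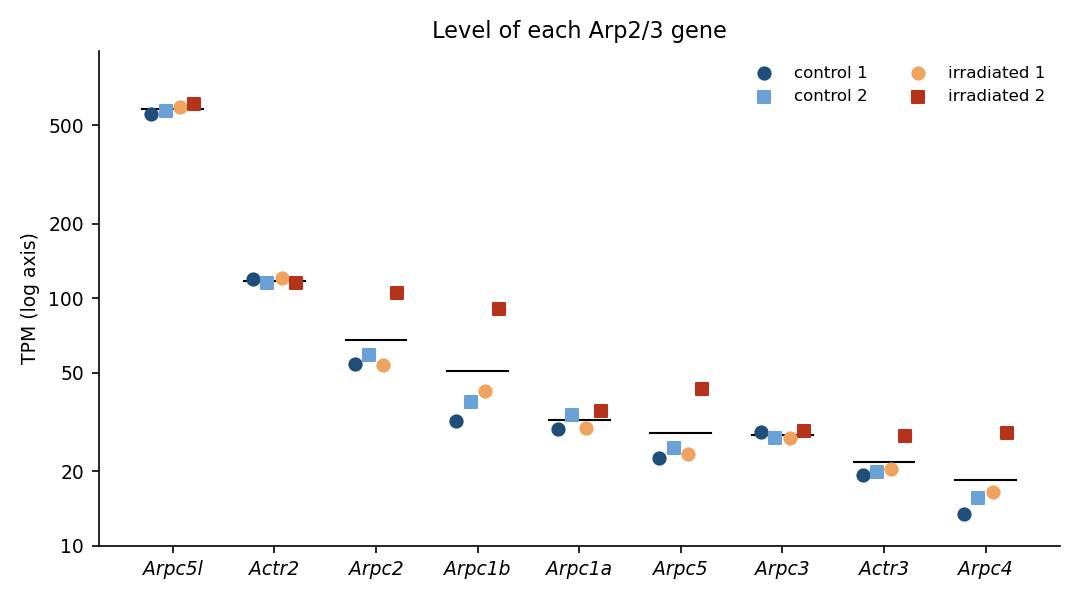
TPM of each Arp2/3 gene in each of the 4 libraries on a log axis, ordered by the mean over the libraries (black line). Arpc5l lies between 553 and 611 TPM and Actr2 between 115 and 121 TPM, above the other 7 genes, whose neighbours in the order overlap.

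The other members formed a series without clear steps. Their mean levels over the 4 libraries were 68.1 ± 25.0 TPM (SD, n = 4) for Arpc2, 50.6 ± 26.8 for Arpc1b, 32.1 ± 2.78 for Arpc1a, 28.5 ± 9.79 for Arpc5, 28.1 ± 1.01 for Arpc3, 21.8 ± 4.05 for Actr3 and 18.5 ± 6.86 for Arpc4. In this series every gene overlapped in range with the next. Within every library, however, Arpc2 was above Arpc1b, Arpc1b above Arpc1a, and Arpc3 above Actr3. The order of Arpc1a and Arpc5, of Arpc5 and Arpc3, and of Actr3 and Arpc4 was reversed in irradiated library 2 relative to the other libraries. The large SDs of Arpc2, Arpc1b, Arpc5 and Arpc4 come with 1 high value each, that of irradiated library 2. Arp2 and Arp3 occur once each in a complex, yet the level of Actr2 was 6.23, 5.85, 5.93 and 4.12 times that of Actr3 in the 4 libraries. The order of the mean levels was the same when only transcripts with the RefSeq prefix for known transcripts (NM_) were summed. Within libraries it was not, since Arpc2 then lay below Arpc1b in control library 2 and irradiated library 1. There its NM_ transcripts were at 28.8 and 7.53 TPM (Arpc1b 37.9) and at 27.8 and 8.61 TPM (Arpc1b 42.2). Even Arpc4 was above 81.2% of all listed genes in mean TPM. The summed level of the 9 genes was 873, 905, 929 and 1085 TPM.

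Next, the gene totals of irradiated and control oocytes were compared, as counts scaled to library size with TMM factors (CPM), here called normalized counts. None of the 9 members passed an adjusted p of 0.05 together with a log2 fold change above 2 in size, where 0.00796% of the genes tested did (1 of 12569). The log2 fold change was above 0 for 5 members and below 0 for 4, with a median of 0.063 against 0.010 over all genes. At an unadjusted p under 0.05 there was 1 member, Arpc1b, against 5.92% of all genes.

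Arpc1b, the alternative form of Arpc1a, had normalized counts of 34.7 and 38.9 in controls, 43.9 in irradiated library 1 and 71.1 in irradiated library 2. Both irradiated values were above both controls, and irradiated library 2 was far above the other 3. The log2 fold change was 0.65 ± 0.23 (SE), with a 95% interval of 0.099 to 1.19 and an adjusted p of 0.71. Arpc4, a core subunit, had 22.3 and 24.2 normalized counts in controls and 26.1 and 34.3 in irradiated oocytes (log2 fold change 0.38 ± 0.17, adjusted p 0.71). Its groups did not overlap either. With Actr3, 3 of the 9 members had both irradiated libraries above both controls, where 22.1% of all genes did, and 1 member, Arpc1a, had both below, where 19.9% did.

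Arpc2, the other core subunit, had 53.8 and 55.3 normalized counts in controls, 51.5 in irradiated library 1 and 78.6 in irradiated library 2. Arpc5 followed the same order with 30.8, 31.8, 30.6 and 42.5 normalized counts. In both genes irradiated library 1 was below the controls and irradiated library 2 above them, and the groups overlapped. Their log2 fold changes were 0.25 ± 0.21 and 0.23 ± 0.18, both with an adjusted p of 0.73 to 0.74. When only the NM_ transcripts were summed, the log2 fold change of Arpc2 was 0.65 (adjusted p 0.81).

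Actr3, which encodes Arp3, was the steadiest member in normalized counts, though not in TPM (27.9 in irradiated library 2 against 19.3 to 20.4 in the others). Its totals were 36.5 and 35.2 normalized counts in controls and 36.8 and 38.1 after irradiation. Its log2 fold change was 0.063 ± 0.13 with a 95% interval of -0.24 to 0.36 (adjusted p 0.87).

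The remaining members had their lowest normalized count in irradiated library 2. Actr2, which encodes Arp2, had 333, 301 and 320 in the control libraries and irradiated library 1, and 229.8 in irradiated library 2. Arpc5l had 479, 468, 495 and 385 in the same order, Arpc3, the subunit beside Arp3, had 16.4, 14.7, 14.9 and 12.1, and Arpc1a had 33.0, 35.4, 31.9 and 28.5. The log2 fold changes of these 4 genes were -0.21 ± 0.21, -0.11 ± 0.21, -0.21 ± 0.16 and -0.18 ± 0.13, with adjusted p values of 0.73 to 0.87.

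**Figure D2:**
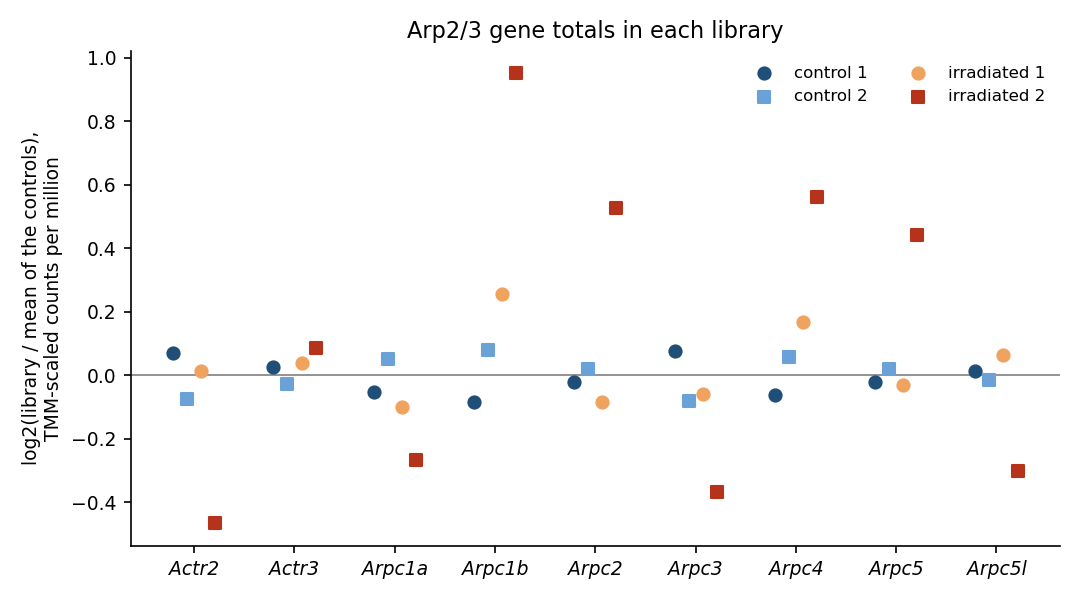
Normalized counts (TMM-scaled CPM) of each Arp2/3 gene in each library, as the log2 ratio to the mean of the 2 control libraries. In irradiated library 2, Arpc1b, Arpc2, Arpc4 and Arpc5 lie above and Actr2, Arpc1a, Arpc3 and Arpc5l below every other library. Actr3 lies only slightly above there (1.04 times the highest other library), and irradiated library 1 lies close to the controls.

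The members differed in where irradiated library 2 lay. In this library, Arpc1b, Arpc2, Arpc4 and Arpc5 were 1.62, 1.42, 1.31 and 1.34 times the highest of the other 3 libraries, so that 4 of 9 members lay above by more than the factor of 1.2. Actr2, Arpc3 and Arpc5l, 3 of 9, lay below by more than that factor. These shares stand beside the 18.5% and 16.2% of all genes given above. Which members were low depended on the scale. In TPM, where 52.3% of all genes lay above the other libraries in irradiated library 2 by that factor and 3.39% below, the same 4 genes and Actr3 (27.9 against 19.3 to 20.4 TPM) lay above, 0 members lay below, and Arpc1a was at its highest (35.2 against 29.6 to 33.7 TPM). Arpc1b, Arpc2, Arpc4 and Arpc5 lay above on both scales. Both scales come from the same reads and TPM places most genes higher in this library, so the second scale is not a separate check.

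When irradiated library 2 was left out, no member had an adjusted p under 0.05 (0.791% of all genes did), and the log2 fold change of Arpc1b was 0.26 (adjusted p 0.29), of Arpc4 0.17, of Arpc2 -0.082 and of Arpc5 -0.030. When irradiated library 1 was left out instead, 8 of 9 members had an adjusted p under 0.05, where 34.3% of all genes did. Of these, 4 were higher, with log2 fold changes of 0.94 for Arpc1b, 0.55 for Arpc4, 0.52 for Arpc2 and 0.43 for Arpc5, and 4 were lower, with -0.48 for Actr2, -0.38 for Arpc3, -0.31 for Arpc5l and -0.28 for Arpc1a. Only Actr3 (0.076, adjusted p 0.61) did not pass. In either fit the lone irradiated library is assumed to vary like the controls, and the 2 fits share the control libraries. In the same library the 14 oocyte markers also moved apart, with 2 above and 11 below the other libraries by more than 1.2 times in normalized counts. Zp1 was at 2579 TPM against 989 to 1294 in the others and Ooep at 1595 against 3889 to 3994. The summed TPM of the other marker lists was also highest in this library, at 25.55 against 17.95 to 20.70 for granulosa or cumulus cells, 0.39 against 0.19 to 0.25 for theca or stroma cells and 3.50 against 1.58 to 1.86 for blood or immune cells. On the TPM scale, 52.3% of all genes lay above by more than 1.2 times in this library. In normalized counts, Cyp19a1 (13.3 against 15.8 to 16.6) and Kitl (4.20 against 5.43 to 6.68) were lowest there. Nr5a2 (17.2 against 11.1 to 14.7), Cyp11a1 (3.25 against 1.78 to 2.22), Bex4 (0.415 against 0.172 to 0.236) and Cd68 (2.15 against 1.26 to 1.51) were highest. Fshr and Inha lay within the range of the others. The part of this library's other differences in the values of the members was not tested.

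Ratios within a library do not depend on how libraries were scaled to each other. Arpc1b made up 51.9% and 53.0% of the summed TPM of Arpc1a and Arpc1b in controls, and 58.5% and 72.0% in irradiated oocytes. In controls the 2 alternative subunits were thus nearly even, and in irradiated library 2 Arpc1b was the larger part. Arpc5 made up 3.93% and 4.14% of the summed TPM of Arpc5 and Arpc5l in controls, 3.80% in irradiated library 1 and 6.60% in irradiated library 2. Arpc5l was the predominant form in all 4 libraries. The exact two-sided permutation test gave p = 0.333 for the share of Arpc1b and p = 1 for that of Arpc5. With 2 libraries against 2, the smallest p it can give is 0.333.

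**Figure D3:**
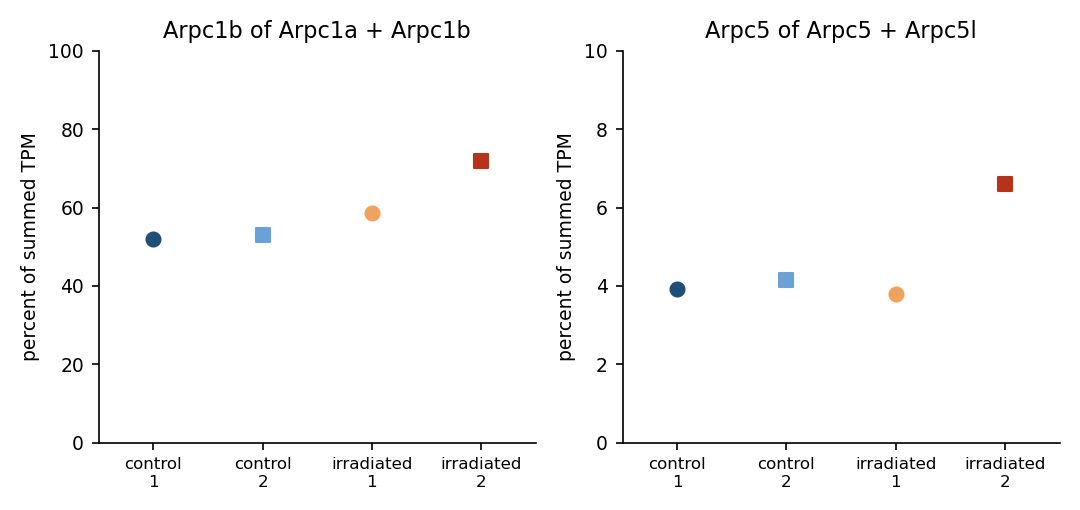
Arpc1b as a percent of the summed TPM of Arpc1a and Arpc1b (left) and Arpc5 as a percent of that of Arpc5 and Arpc5l (right), 1 point for each library, on axes that start at 0. The share of Arpc1b is 51.9% and 53.0% in controls and 58.5% and 72.0% in irradiated libraries, and that of Arpc5 is highest, 6.60%, in irradiated library 2.

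Arpc1a and Arpc1b are neighbours on the same strand. In normalized counts Arpc1a was lowest and Arpc1b highest in irradiated library 2, but Arpc1a by less than the factor of 1.2. In TPM both were highest there (35.2 and 90.3). The 250 bases before each annotated start are shown from the RefSeq promoter table of GRCm38.p6, 5′ to 3′. They lie at chr5:145083619-145083868 and chr5:145114006-145114255, both on the plus strand. Capitals mark GGGCGG on either strand (read as CCGCCC on the other), the GC box.
Arpc1a: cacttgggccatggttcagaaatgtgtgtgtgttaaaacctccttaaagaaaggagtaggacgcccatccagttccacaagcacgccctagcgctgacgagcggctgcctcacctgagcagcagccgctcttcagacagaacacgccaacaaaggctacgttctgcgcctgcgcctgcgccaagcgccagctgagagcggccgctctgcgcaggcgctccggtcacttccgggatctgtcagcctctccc
Arpc1b: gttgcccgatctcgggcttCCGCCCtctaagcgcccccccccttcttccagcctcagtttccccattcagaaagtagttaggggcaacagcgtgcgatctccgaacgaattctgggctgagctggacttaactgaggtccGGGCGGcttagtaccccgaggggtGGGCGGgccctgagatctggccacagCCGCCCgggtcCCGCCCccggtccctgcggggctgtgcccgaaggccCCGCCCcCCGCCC
GGGCGG occurs 7 times before Arpc1b and 0 times before Arpc1a. Among the 8 members with an entry in the table, it occurs before 5 (Arpc1b, Arpc2, Arpc5, Actr2 and Actr3), where 32.7% of 32851 promoters of this length hold it. Of the 4 genes that were high in irradiated library 2, Arpc4 holds none. CCGGAAG, the core bound by ETS factors, is also in 5 (Actr2, Actr3, Arpc1a, Arpc3 and Arpc4), against 6.91% of all promoters, and CCAAT in 2 (Actr2 and Arpc5), against 33.8%. TATAAA is in 0, against 12.4%, CACGTG in Arpc5 only, against 6.02%, and the CArG box, the element of serum response factor, in Arpc4 only, against 1.47%. Both strands were searched, and matches of different motifs may overlap. The member promoters held 14 to 37 CpG, against a median of 6. A match describes these letters and not a binding site. Whether the matches bear on the levels of the genes was not tested.

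Below the level of the gene, 5 members had a single listed transcript and 4 had 2 or 3. Of the 16 transcripts, 15 passed the low-count filter and 0 passed both limits in the edgeR quasi-likelihood test, where 0% of the 26645 transcripts tested did (1306, of which 2 were Arp2/3 transcripts, had an unadjusted p under 0.05). These 2 were both from Actr3.

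Actr3 is listed with 3 transcripts. Among controls, NM_001205385.1 had 1153 and 1080 estimated counts, NM_023735.2 had 103 and 64.4, and NM_001205386.1 had 0.06 and 0.28. After irradiation, NM_001205386.1 had 689 and 814, NM_001205385.1 had 480 and 642, and NM_023735.2 had 50.7 and 104. NM_001205386.1 was thus at the floor of 3 counts in both controls and held 56.5% and 52.2% of the gene's counts in irradiated oocytes, at least 229-fold higher against 3 counts in each control library. NM_001205385.1 went from 91.8% and 94.3% of the gene's counts to 39.3% and 41.1%, and its log2 fold change was -1.13 ± 0.12. NM_023735.2 stayed between 4.15% and 8.19%. Both shares differed between conditions by more than between replicates (a gap of 54.3 percentage points for NM_001205386.1, against 4.29 between the irradiated libraries), and irradiated library 1, which otherwise resembled the controls, had nearly the same division as irradiated library 2. The exact two-sided permutation test gave p = 0.333 for either transcript, the smallest possible, and p = 0.667 for NM_023735.2. Over the 5 shares tested in this way the Benjamini-Hochberg adjusted p was 0.556 to 1.

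**Figure D4:**
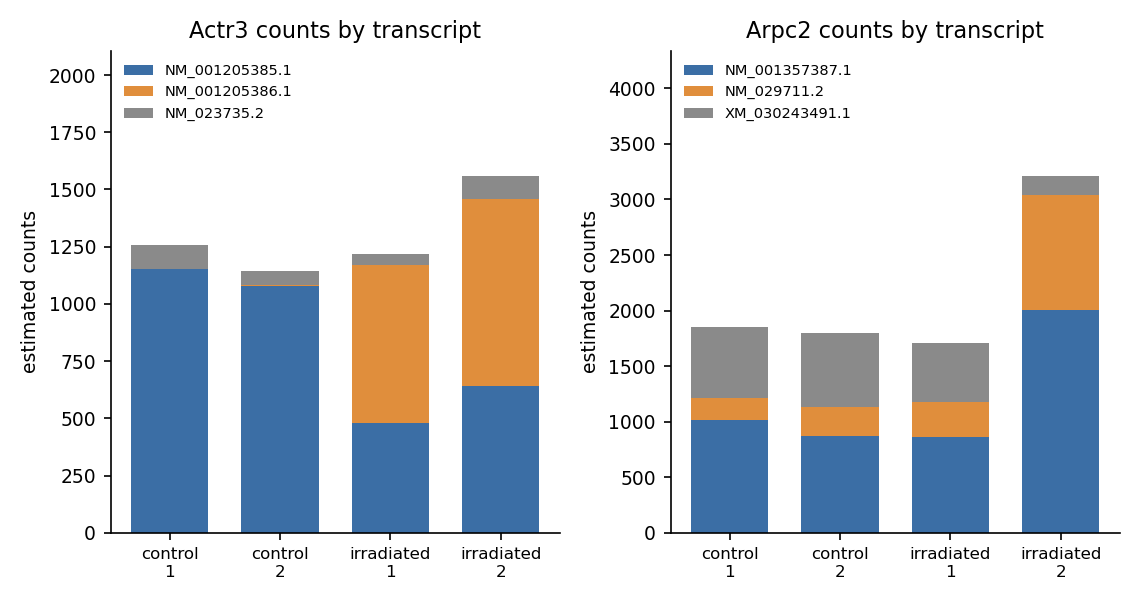
Estimated counts of Actr3 (left) and Arpc2 (right) in each library, stacked by listed transcript. In Actr3, NM_001205386.1 is at the floor in controls and holds 689 and 814 counts after irradiation, and for Arpc2 both NM_ transcripts are high in irradiated library 2.

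In the quasi-likelihood test, NM_001205385.1 and NM_001205386.1 each had an adjusted p of 0.78, and NM_023735.2 had an unadjusted p of 0.60. DESeq2, which called 248 transcripts in all, gave NM_001205386.1 an adjusted p of 3.63e-11, and edgeR's exact test, which called 247, gave 9.68e-43. In the test of isoform usage (diffSpliceDGE of edgeR with Simes' method), Actr3 passed with an adjusted p of 0.000194, Arpc2 (1.00) and Arpc5l (1.00) did not, and 0.253% of 6323 genes passed. The Actr3 call was lost without control library 1 (adjusted p 0.055), without control library 2 (0.087) and without irradiated library 2 (0.065), was kept without irradiated library 1 (0.033), and was lost with limma's diffSplice (0.35), which called 0 genes.

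The RefSeq sequences of the Actr3 transcripts were not used here, and their annotation was read from GENCODE. GENCODE M21 links NM_001205385.1 and NM_001205386.1 to the same transcript model, ENSMUST00000027579.16, with 13 exons, and NM_023735.2 to ENSMUST00000178474.7, with 12 exons. How the first 2 records differ is therefore not shown. Both models share their 12 coding intervals and a coding sequence of 1254 bases without the stop codon. The ratio of counts to TPM, which follows the effective length that the quantification used, was 0.998 to 0.999 times as large for NM_001205386.1 as for NM_001205385.1 in the irradiated libraries, so the 2 records had nearly the same length. For NM_023735.2 the ratio was 1.08 times that of NM_001205385.1. How counts were divided between records this close in length rests on the authors' estimation step, which was not tested.

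Other genes had transcripts with the pattern of NM_001205386.1. Of 45505 listed transcripts, 23 (0.0505%) had at most 3 counts in both controls and over 100 in both irradiated libraries, and 14 (0.0308%) had the reverse. The Actr3 transcript had the highest minimum of the 23, with 689 counts, followed by transcripts of Sytl4 (578), Gpbp1 (408), Slc23a2 (356) and Tbc1d14 (278). All 23 came from different genes, each with more than 1 listed transcript. Of the 23 gene totals, 0 passed both limits, where 0.00796% of all genes did. Their median log2 fold change was 0.032 and the largest 0.75. The rule that picked these transcripts already implies a different division of the gene's counts between conditions. That division is therefore not a separate result for these genes.

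Arpc2 showed a different pattern, largest in irradiated library 2. Its transcripts NM_001357387.1, NM_029711.2 and XM_030243491.1 held 54.7%, 10.9% and 34.4% of the gene's counts in control library 1, 48.3%, 14.7% and 37.0% in control library 2, 50.8%, 18.4% and 30.9% in irradiated library 1, and 62.3%, 32.3% and 5.39% in irradiated library 2. The computed record XM_030243491.1 was thus far lowest in irradiated library 2, with 173 estimated counts against 527 to 665. Its share was below both controls in both irradiated libraries, and that of NM_029711.2 above both, though Arpc2 did not pass the test of isoform usage. Both NM_ records encode the same 900 coding bases in their GENCODE models. In Arpc5l, NM_028809.1 held 92.1% to 93.3% of the counts in every library, and the shares of all 3 transcripts differed by at most 1.27 percentage points over the libraries. In Arpc4, NM_026552.3 held all counts in 3 libraries. The other record, NM_001170486.1, whose model has a coding sequence of 234 instead of 504 bases, had 20.6 estimated counts (1.46% of the gene) in irradiated library 2 and 0 elsewhere.

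Finally, genes that act with the complex were examined in 7 lists of 79 genes, of which 63 were tested. None passed both limits, 0 higher and 0 lower, beside 0.00796% of all genes. At an unadjusted p under 0.05 there were 5, against 5.92% of all genes. The log2 fold change was above 0 for 31 and below 0 for 32, with a median of -0.0044, or 0.032 without irradiated library 2. In irradiated library 2, 10 of the 63 lay above and 15 below the other libraries by more than 1.2 times, beside 18.5% and 16.2% of all genes.

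Among the activators that switch the complex on, 4 of 8 tested genes of the WASP and WAVE list had a log2 fold change above 0, with a median of -0.018, or 0.10 without irradiated library 2. The highest was that of Wasf1, which encodes WAVE1, with 3.29, 2.46, 2.45 and 5.30 normalized counts (0.44 ± 0.37, adjusted p 0.74), and the lowest that of Wasf2, which encodes WAVE2, with 26.9, 27.8, 24.7 and 20.2 (-0.29 ± 0.15, adjusted p 0.71). Without irradiated library 2 they were at -0.24 and -0.15. Only irradiated library 2 was high in Wasf1, whereas both irradiated libraries were below the controls in Wasf2, where 19.9% of all genes had this order. The WAVE regulatory complex, which holds WAVE inactive until a signal arrives, had 3 of 7 genes above 0 (median -0.028, or -0.029 without irradiated library 2). It ran from Abi1 (0.27 ± 0.15) to Cyfip1 (-0.47 ± 0.31), which had 9.36 normalized counts in irradiated library 2 and at least 19.6 in each of the others. Without irradiated library 2 these 2 were at 0.097 and -0.025. The WASH complex, which activates Arp2/3 on endosomes, had 1 of 5 above 0, with a median of -0.097, or 0.014 without irradiated library 2. It ran from Washc1 (0.29 ± 0.13, or 0.27 without that library) to Washc4, with 585, 511, 553 and 371 normalized counts (-0.25 ± 0.25, or 0.014 without that library).

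The list of inhibitors and branch disassembly factors, which keep the complex inactive or take branches apart, had 7 of 8 genes above 0, with a median of 0.27, or 0.14 without irradiated library 2. It ran from Coro2b, a coronin, with 2.76, 3.14, 2.38 and 6.31 normalized counts (0.57 ± 0.42), to Gmfb, a glia maturation factor that removes branches, with 441, 381, 453 and 312 (-0.10 ± 0.24). Without irradiated library 2, Coro2b was at -0.30 and Gmfb at 0.14. Among the other actin-related proteins, 7 of 8 were also above 0 (median 0.21 with and without irradiated library 2), from Actr1b (0.62 ± 0.29) to Actr10 (-0.19 ± 0.18), both parts of dynactin. These 2 were at 0.22 and 0.0095 without irradiated library 2. Actr3b, the paralog of Actr3, had 2.76 and 2.68 normalized counts in controls and 3.53 and 3.32 in irradiated oocytes (0.33 ± 0.19, adjusted p 0.71). Both irradiated values were above both controls, where 22.1% of all genes had this order. Actr3b made up 8.59% and 8.56% of the summed TPM of Actr3 and Actr3b in controls and 10.6% and 9.84% in irradiated oocytes.

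Actin nucleators other than Arp2/3 build unbranched filaments, and in oocytes Fmn2, Spire1 and Spire2 make the cytoplasmic actin mesh that moves the spindle. Fmn2 had 14.1, 15.7, 12.5 and 14.6 normalized counts (-0.14 ± 0.15), Spire1 had 79.6, 95.3, 86.7 and 91.9 (0.031 ± 0.15) and Spire2 had 1.28, 1.66, 1.78 and 2.22 (0.45 ± 0.26). The groups overlapped for Fmn2 and Spire1. For Spire2 both irradiated libraries were above both controls, where 22.1% of all genes were, and none of the 3 passed. Over 13 nucleators the median was -0.14 (-0.15 without irradiated library 2). Fmnl3 was the lowest (-0.45 ± 0.43, or 0.13 without that library), at 12.2 normalized counts in irradiated library 2 against 31.3 to 35.9 in the others. In the list of actin and its monomer-binding, capping and severing proteins, 4 of 14 were above 0, with a median of -0.099, or 0.033 without irradiated library 2. It ran from Cap1, which recycles actin monomers, with 2.53, 2.86, 3.89 and 6.45 normalized counts (0.95 ± 0.28, adjusted p 0.71), to Cfl2, a cofilin that severs filaments, with 247, 245, 244 and 141 (-0.35 ± 0.26). Without irradiated library 2, Cap1 was at 0.53 and Cfl2 at -0.0092.

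**Figure D5:**
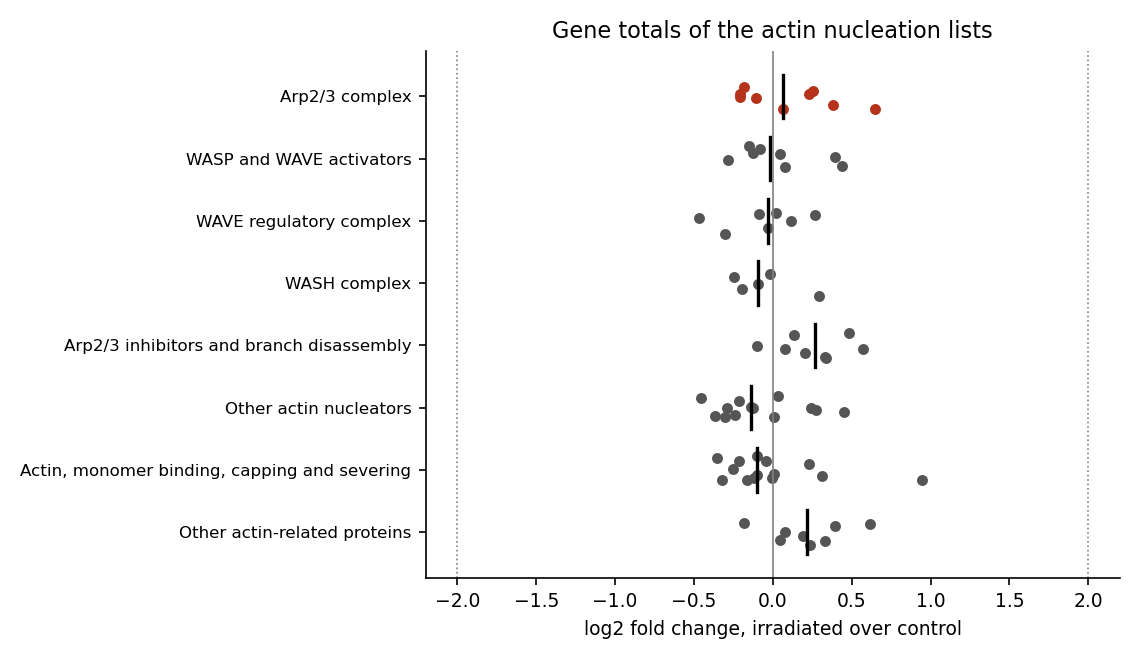
Log2 fold change of gene totals, irradiated over control, for the 9 Arp2/3 genes (red) and the 63 tested genes of 7 lists around the complex (grey), 1 point for each gene with the median as a black line and the limits of -2 and 2 dotted. All points lie between the limits, with Cap1 (0.95) the highest and Cyfip1 (-0.47) the lowest. Without irradiated library 2, which these values include, the 2 genes were at 0.53 and -0.025.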

How the data were processed

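RNA-seq of 4 libraries, 2 control and 2 irradiated, was analysed by gene and by transcript, with groups and replicate numbers taken from the labels. The authors aligned paired-end reads to GRCm38 and deposited, for each RefSeq transcript, estimated counts without scaling for library size and TPM values. HISAT2, Bowtie2 and RSEM are named in the submitters' processing notes, and their order and versions are not given in the sources used here. Columns of FPKM values (4) and averages (6) were not used. Since reads were divided between transcripts by estimation, that step adds its own error to a transcript's value.

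Estimated counts were summed per gene ID and rounded. The quasi-likelihood test of edgeR 4.0.16 (R 4.3.3) was run with TMM factors and no block on features kept by filterByExpr, whose minimum count was 10, and p values were adjusted by Benjamini-Hochberg over every feature tested. Features were called at an adjusted p below 0.05 with a log2 fold change beyond 2 in either direction. Isoform usage was tested with diffSpliceDGE. TPM values were used to compare genes. Limma 3.58.1, also on log2(TPM + 1), and DESeq2 1.42.0 served as alternatives. On simulated counts with 200 features changed by 3 log2 units, the test recovered 99.5% of changed genes among 12394, with 0 false calls, and 76.0% of changed transcripts among 23700, with 2 false calls. The changed features were taken from those with high mean counts. Both irradiated libraries were drawn from a common mean with the fitted dispersion, so that no library stood apart. The rates therefore need not hold for smaller changes, low counts or the real libraries.

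The members and gene lists were chosen with earlier results of these data known. A further gene list is not reported here. Named in the text are all members and their listed transcripts, the highest and lowest tested gene of each list, Actr3b, Fmn2, Spire1 and Spire2, and the first 5 transcripts with the pattern of NM_001205386.1, itself included. Markers were named with their values in view. Deviations from the group means of libraries with the same number correlated at 0.0975 over genes and 0.0206 over transcripts, so the numbers were not taken as pairs. Figures were drawn with matplotlib in Python.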

Additional observations from a re-analysis of the deposited data

How the results depend on the processing

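The count of members past both limits was 0 for gene totals under every alternative run, and that of members with an adjusted p under 0.05 was 0 except without irradiated library 1, with a range of 0 to 8 over the fits that each left out 1 library. For transcripts, DESeq2 and edgeR's exact test each called 1, NM_001205386.1, and gave 2 an adjusted p under 0.05, that one and NM_001205385.1, where the other alternatives gave 0. Isoform usage of Actr3 lost its call with limma's diffSplice (0 members called), and the count was 0 to 1 over the fits without 1 library. With the replicate block, 0 members were called for isoform usage (adjusted p of Actr3 0.14), and the blocked fit changed no other call of the members; neither the labels nor the correlation of deviations shows that the replicate numbers pair the libraries, and a pairing by experiment was not tested further. Of the genes in the 7 lists around the complex, 0 passed both limits under any alternative run.

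The summed level of the 9 genes had a log2 ratio of irradiated over control of 0.18 in TPM and -0.053 in normalized counts, and 0.064 to 0.29 in TPM over the fits without 1 library. Scaling by library size alone moved the median log2 fold change of all genes to 0.17 and TPM moved it to 0.14, from 0.010. With that shift of all genes, several small values came to lie above 0, those of gene totals staying below the shifted median. By library size alone, Arpc5l was at 0.033, NM_028809.1 at 0.038 and XM_006498389.4 at 0.011. On log2(TPM + 1), Actr2 and its transcript NM_146243.2 were at 0.00092, Arpc1a and NM_019767.2 at 0.037, Arpc3 and NM_019824.4 at 0.0036, Arpc5l at 0.10, NM_028809.1 at 0.10 and XM_006498389.4 at 0.075. Over the fits without 1 library, the range of log2 fold changes held 0 for Actr2 (-0.48 to 0.015), NM_146243.2 (-0.44 to 0.019), Arpc2 (-0.082 to 0.52), NM_001357387.1 (-0.097 to 0.82), Arpc5 (-0.030 to 0.43), NM_026369.2 (-0.026 to 0.46), Arpc5l (-0.31 to 0.064), NM_028809.1 (-0.28 to 0.081) and NM_023735.2 (-0.68 to 0.066). In each of these except NM_023735.2 the sign turned without irradiated library 2. The cause was not tested. Of 297 values of single genes and transcripts under alternatives, 273 kept direction and side of the limits. On the TPM scale, chosen after seeing the data, the number of members below the other libraries in irradiated library 2 went from 3 to 0.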
